A study of Homo sapiens with 6 samples.

Results

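The genes described here were the ligands, receptors and SMAD proteins of the TGF-beta pathway together with TGFBI, a gene induced by the pathway. They were chosen by name: TGFB1, TGFB2, TGFBR1, TGFBR2, TGFBR3, SMAD2, SMAD3, SMAD4, SMAD7 and TGFBI. All 10 were found among the 17860 genes of the deposited table, each had a value in all 6 samples, and all 10 passed the filter on low counts. The cells were HCC1806/HM3, a liver-metastatic derivative of the human triple-negative breast cancer line HCC1806 that was obtained by repeated selection in mice. They had been infected with lentivirus and selected with G418, and 3 samples expressed a control hairpin (shNC) and 3 expressed a hairpin directed at mesothelin (shMSLN). Total RNA was enriched for mRNA with oligo(dT) beads and sequenced by BGI. The labels give a single knockdown line without a rescue, and they do not say whether the 3 samples of a group were separate cultures, so the p-values measure only the spread between these samples, which may be technical.

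TGF-beta ligands are made as latent precursors that are held in the matrix until they are released by integrins, proteases or thrombospondin. The free ligand binds the type II receptor, which phosphorylates the type I receptor, and this kinase in turn phosphorylates SMAD2 and SMAD3. These enter the nucleus with SMAD4 and act on target genes, among which SMAD7 feeds back on the receptor. In breast epithelium the pathway is known both for arresting growth and, in carcinoma, for promoting invasion and metastasis.

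Depth was similar in all samples, at between 17507837 and 18512135 estimated counts. The shMSLN columns held no value for 695 to 1103 genes, and in shMSLN replicates 2 and 3 whole numbers made up 47.7% of the estimated counts above 100, against 3.36% to 7.02% in the other samples (within 0.005). MSLN itself was at 231, 226 and 227 CPM (counts scaled to library size after TMM) in shNC cells and at 37.1, 36.2 and 35.4 CPM in shMSLN cells, a fold of 0.159 (adjusted p = 3.97e-15 in edgeR's quasi-likelihood test). Of 10 markers of breast epithelium all 10 were above 1 CPM. Their summed level was 4332 to 4869 CPM in shNC and 3870 to 4028 CPM in shMSLN samples. The basal keratin KRT14 was at only 3.52 ± 0.132 and 3.98 ± 0.305 CPM (SD, n = 3 each). KRT5 fell from 2270 ± 170 to 1749 ± 32.4 CPM and KRT6A from 145 ± 24.4 to 70.9 ± 0.564 CPM. At an adjusted p below 0.05 in that test, TP63, SFN and KRT18 were also lower, and CDH1 and KRT17 were higher. Only 2 of 4 hepatocyte markers had a value in every sample, and neither of these reached 1 CPM. Of the leukocyte markers 3 of 4 had a value in every sample, and of the endothelial markers all 4. Among these CD68, PTPRC, VWF, PECAM1 and CDH5 reached 1 CPM, with summed levels of 23.8 to 28.0 CPM for leukocyte and 7.32 to 9.94 CPM for endothelial markers.

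To learn whether the pathway's own components moved with MSLN, shMSLN cells were compared with shNC cells. TGFB2, TGFBR1 and SMAD3 mRNA fell in shMSLN cells, TGFBR3 and SMAD7 mRNA rose, and TGFB1, TGFBR2, SMAD2, SMAD4 and TGFBI did not pass the test. Thus 2 of the 10 genes were higher and 3 lower at an adjusted p below 0.05 in edgeR's quasi-likelihood test. Among all 14552 tested genes 34.6% were called, 16.6% as higher and 18.0% as lower, and among the 10502 genes with a mean of at least 10 CPM, a level that each of the 10 genes reached, 39.3% were called. The count of 5 of 10 is therefore read gene by gene and not as a shift of the group. The median log2 fold change was 0.030 over the 10 genes and 0.0019 over all tested genes. On the scale of log2(TPM + 1), 2648 of all genes were called higher and 1690 lower, in place of 2411 and 2621. The groups did not overlap for 5 of the 10 genes, and for 46.2% of all tested genes. Without shMSLN replicate 2, only 3 of the 10 genes were called. The values come from bulk RNA, in which fewer cells with a transcript and less transcript per cell cannot be told apart.

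**Figure D1:**
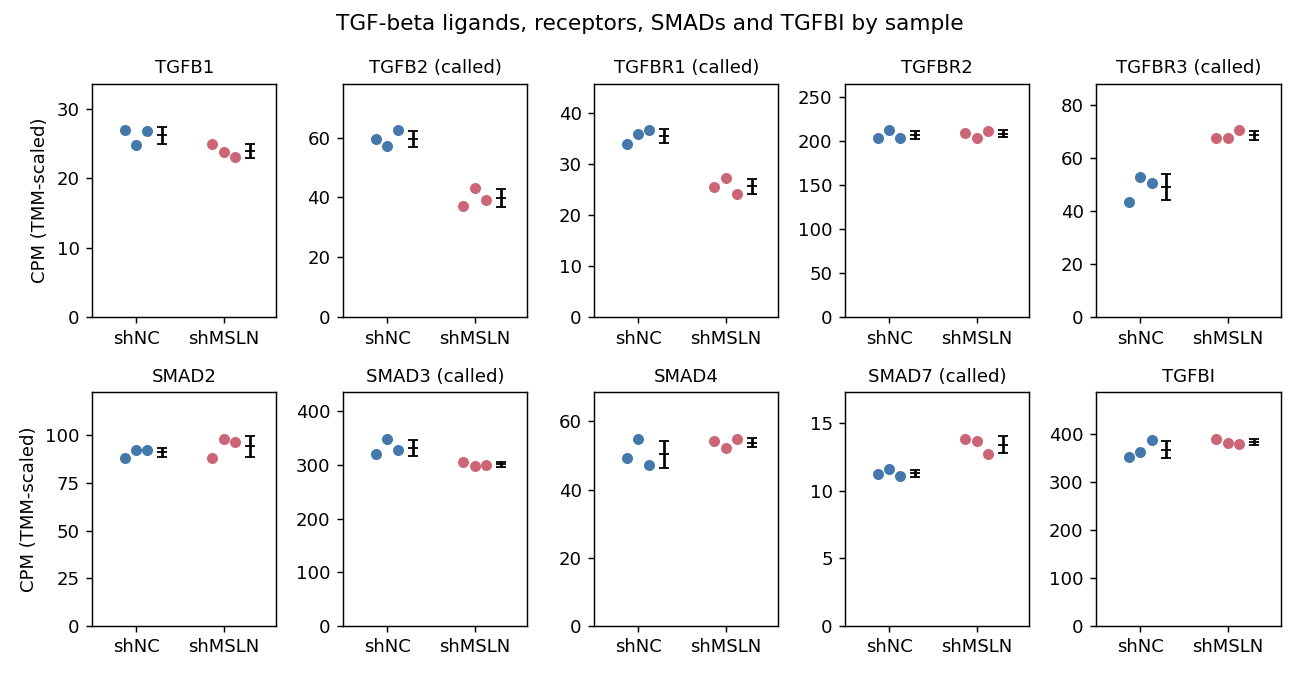
Each panel plots 1 gene in CPM on an axis that starts at 0, with the 3 shNC samples in blue, the 3 shMSLN samples in red and the mean with SD beside them. The samples separate without overlap for TGFB2, TGFBR1, TGFBR3, SMAD3 and SMAD7.

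The ligand genes differed in their response. TGFB2 encodes the isoform that depends most on betaglycan for receptor binding. It was at 59.5, 57.1 and 62.4 CPM in shNC cells and at 37.0, 43.1 and 39.2 CPM in shMSLN cells. Every knockdown sample was thus well below every control sample, and the mRNA fell by 33.4% (log2 fold change -0.59, standard error (SE) 0.060, adjusted p = 3.16e-06). TGFB1, the most widely expressed isoform, was at 26.9, 24.8 and 26.8 CPM in shNC cells and at 25.0, 23.7 and 23.0 CPM in shMSLN cells. The groups overlapped, since shMSLN replicate 1 lay above the lowest control. The log2 fold change of TGFB1 was -0.13 (95% interval -0.27 to 0.0068, adjusted p = 0.132), so a decrease of up to 16.8% was not separated from no difference. TGFB3, the third ligand gene, was low in both groups, at 4.31 ± 0.687 and 3.97 ± 0.415 CPM (SD, n = 3 each, adjusted p = 0.602).

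The balance between the ligands was compared within each sample in TPM, which is scaled for transcript length. The ratio of TGFB2 to TGFB1 was 0.809, 0.835 and 0.846 in shNC cells and 0.523, 0.631 and 0.627 in shMSLN cells. In TPM, TGFB1 was the more abundant ligand mRNA in every sample, and the gap was wider in each knockdown sample. In CPM, which leaves length out, TGFB2 was above TGFB1 in every sample. The order in TPM thus rests on the gene lengths behind the deposited values. The log2 ratio differed by -0.49 between the groups (p = 0.1 by two-sided exact permutation, which is the lower limit for groups of 3, and 0.1 when adjusted over 3 ratios).

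The receptors moved in different directions. TGFBR1 encodes the type I receptor kinase, known as ALK5, that phosphorylates SMAD2 and SMAD3. It was at 33.9, 35.8 and 36.6 CPM in shNC cells and at 25.4, 27.1 and 24.2 CPM in shMSLN cells. No sample of the groups overlapped, and TGFBR1 fell by 27.8% (log2 fold change -0.47, SE 0.062, adjusted p = 3.95e-05). TGFBR3 encodes betaglycan, a co-receptor without a kinase that presents ligand to the type II receptor and that, once shed, binds ligand away from the cell. It was at 43.5, 53.0 and 50.6 CPM in shNC cells and at 67.6, 67.8 and 70.6 CPM in shMSLN cells. The controls were spread more widely than the knockdown samples, yet the highest control was well below the lowest shMSLN sample, and TGFBR3 rose by 40.1% (log2 fold change 0.49, SE 0.062, adjusted p = 3.12e-05).

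TGFBR2 encodes the type II receptor, which binds ligand first and carries an always active kinase. It was at 203, 212 and 204 CPM in shNC cells and at 209, 203 and 211 CPM in shMSLN cells, so that the samples were interleaved. Its log2 fold change was 0.0099, and the 95% interval of the difference ran from -4.65% to 6.33% (adjusted p = 0.863). The direction of so small a difference is not fixed, and it was -0.0010 without shNC replicate 1, -0.00090 without shNC replicate 3 and -0.00031 without shMSLN replicate 3. The ratio of TGFBR2 to TGFBR1 in TPM was 8.87, 8.67 and 8.19 in shNC cells and 12.0, 11.0 and 12.6 in shMSLN cells. It was higher in each knockdown sample than in any control, with a log2 difference of 0.47 (p = 0.1 by two-sided exact permutation, the lower limit here).

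The sequences before the start sites of TGFB2 and TGFBR3 are shown because these genes had the largest fall and the largest rise of the 10 and because RefSeq (GRCh38.p14) lists a single start for each. Each line gives the 250 bases before the start, 5′ to 3′ on the gene's own strand, and capitals mark CAGAC, the letters that SMAD3 and SMAD4 recognise, or its reverse complement. The TGFB2 window is chr1:218345086-218345335 on the forward strand, and that of TGFBR3 is chr1:91886152-91886401 on the reverse strand.
TGFB2: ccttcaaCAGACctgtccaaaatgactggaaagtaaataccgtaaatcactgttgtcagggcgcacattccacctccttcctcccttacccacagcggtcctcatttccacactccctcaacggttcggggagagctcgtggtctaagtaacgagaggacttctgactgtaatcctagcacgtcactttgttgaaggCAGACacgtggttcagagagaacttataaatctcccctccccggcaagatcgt
TGFBR3: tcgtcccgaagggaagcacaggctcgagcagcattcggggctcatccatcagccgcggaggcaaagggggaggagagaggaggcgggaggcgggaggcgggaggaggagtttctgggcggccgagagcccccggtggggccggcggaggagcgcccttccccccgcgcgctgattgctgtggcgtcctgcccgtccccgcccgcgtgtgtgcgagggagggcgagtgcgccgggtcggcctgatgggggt
The TGFB2 window held CAGAC at 2 places, starting 243 and 53 bases before the start site, and a TATAAA 29 bases before it, with a GC content of 50.4%. The annotations differ in these starts, since in GENCODE release 29 TGFB2 begins downstream of the RefSeq start and TGFBR3 begins upstream of it, so that the TGFBR3 window lies within the GENCODE gene. The TGFBR3 window held neither CAGAC nor TATAAA, had a GC content of 73.6% and held the GC box GGGCGG or its reverse complement at 2 places. CAGAC on either strand was in 38.0% of all 35116 windows of this length, TATAAA in 10.7% and GGGCGG in 42.6%. The 10 genes had 25 listed windows in all, and CAGAC was in 9 of these, from TGFB2, TGFBR1, SMAD3 and SMAD7, of which all but TGFB2 have several windows. This is close to the share of all windows. None held the longer element GTCTAGAC, which was in 0.182% of all windows. These matches are descriptions of letters and do not locate binding.

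Among the SMAD genes the differences were smaller. SMAD3, a receptor-regulated SMAD that binds DNA directly, was at 321, 348 and 327 CPM in shNC cells and at 306, 298 and 299 CPM in shMSLN cells. The knockdown samples lay close together and below all controls, and SMAD3 fell by 9.25% (log2 fold change -0.14, SE 0.039, adjusted p = 0.0113). This call was lost without shMSLN replicate 2 (adjusted p = 0.0663) or replicate 3 (adjusted p = 0.0574). Over 16 alternatives its adjusted p ran from 0.000963 to 0.321 and its direction did not change. SMAD2, the other receptor-regulated SMAD of the pathway, was at 88.3, 92.5 and 92.3 CPM in shNC cells and at 87.9, 98.1 and 96.6 CPM in shMSLN cells. Its shMSLN replicate 1 was the lowest of all samples and replicate 2 the highest, and the log2 fold change of 0.049 did not pass the test (95% interval -0.054 to 0.15, adjusted p = 0.462).

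SMAD4, the common partner that joins SMAD2 and SMAD3 in the nucleus, was at 49.4, 54.8 and 47.1 CPM in shNC cells and at 54.2, 52.3 and 54.8 CPM in shMSLN cells. The groups overlapped through shNC replicate 2, and the log2 fold change was 0.093 (95% interval -0.029 to 0.22, adjusted p = 0.229). Without that control sample SMAD4 was called higher, at 0.16 on the log2 scale (adjusted p = 0.0322), and over 16 alternatives the adjusted p ran from 0.0322 to 0.635. In TPM the ratio of SMAD3 to SMAD2 was 8.70, 8.73 and 8.34 in shNC cells and 8.25, 7.57 and 7.62 in shMSLN cells. SMAD3 was therefore the more abundant mRNA by a wide margin in all samples, and its lead was slightly smaller in each knockdown sample (log2 difference -0.14, p = 0.1 by two-sided exact permutation, the lower limit here).

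SMAD7, the inhibitory SMAD that blocks the type I receptor, was the least abundant of the 10 genes in counts, with 199 to 257 reads per sample. It was at 11.2, 11.6 and 11.1 CPM in shNC cells and at 13.8, 13.7 and 12.7 CPM in shMSLN cells. All knockdown samples were above all controls, and SMAD7 rose by 18.7% (log2 fold change 0.25, SE 0.082, adjusted p = 0.0304). In TPM the rise was from 8.61 ± 0.237 to 11.0 ± 0.378 (SD, n = 3 each). The call in counts was not firm. It was lost with DESeq2 (adjusted p = 0.131) and without shNC replicate 3 (0.0900), shMSLN replicate 1 (0.0936) or shMSLN replicate 2 (0.0980), within a range of adjusted p from 0.00758 to 0.168 over 16 alternatives in which the direction did not change.

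TGFBI, a secreted matrix protein named for its induction by TGF-beta, was at 353, 363 and 389 CPM in shNC cells and at 390, 381 and 380 CPM in shMSLN cells. The highest control lay within the range of the knockdown samples. Its log2 fold change of 0.060 did not pass the test (95% interval -0.024 to 0.14, adjusted p = 0.259), so an increase above 10.5% lay outside the interval.

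**Figure D2:**
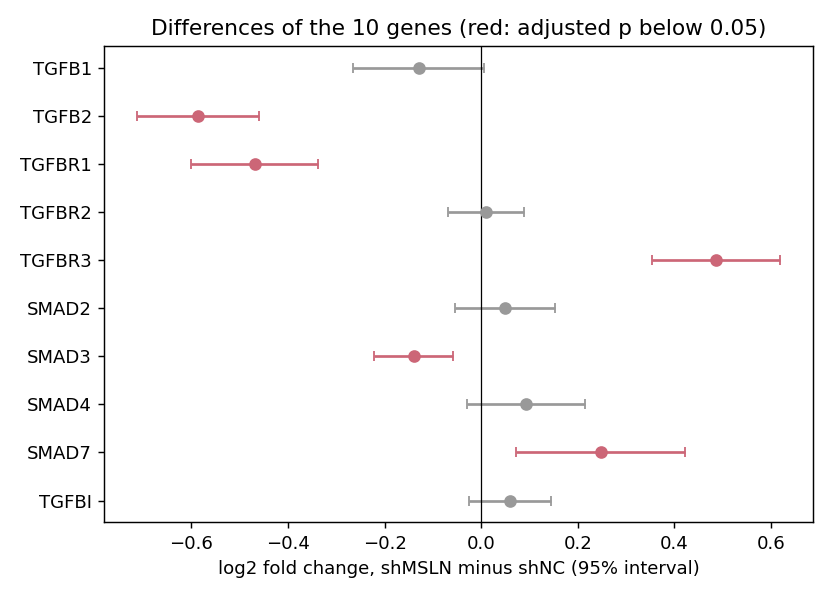
The log2 fold change of each of the 10 genes (shMSLN minus shNC, horizontal axis) is plotted with its 95% interval from edgeR's quasi-likelihood fit, in red where the adjusted p was below 0.05. TGFB2 lies lowest at -0.59 and TGFBR3 highest at 0.49, whereas the interval of TGFBR2 is centred near 0.

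In GENCODE release 29 (GRCh38) TGFB2 lies on chromosome 1 from 218346235 to 218444619, TGFBR3 on chromosome 1 from 91680343 to 91906335 and TGFBR1 on chromosome 9 from 99104038 to 99154192. SMAD3 lies on chromosome 15 from 67063763 to 67195195 and SMAD7 on chromosome 18 from 48919853 to 48952052. Exons of TGFB2 share 1371 of 5151 bases with the non-coding gene TGFB2-OT1 on the same strand, and exons of SMAD4 share 967 of 13123 bases with the annotated gene AC091551.1. On the opposite strand, exons of TGFB1 share 215 bases with HNRNPUL1 and those of SMAD3 share 182 bases with an antisense gene. Whether reads were counted by strand is not given in the sources used here, so the assignment of reads in these stretches is uncertain.

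The levels of the 10 genes were ordered in TPM. In shNC cells TGFBI was highest at 297 ± 15.5 TPM, followed by SMAD3 at 120 ± 7.87, TGFBR2 at 102 ± 4.89, TGFB1 at 26.5 ± 0.639 and TGFB2 at 22.0 ± 0.734 TPM (SD, n = 3 each). None of these 5 genes overlapped its neighbour in that order. TGFBR3 at 16.8 ± 2.01, SMAD2 at 14.0 ± 0.856, SMAD4 at 12.5 ± 1.24 and TGFBR1 at 11.9 ± 0.704 TPM followed, and each overlapped the next, while SMAD7 was below them at 8.61 ± 0.237 TPM. The type II receptor was thus far more abundant than the type I receptor at the mRNA level, and SMAD3 than SMAD2. In shMSLN cells the upper 4 places were the same. TGFBR3, at 24.0 ± 0.713 TPM, lay in the fifth place, where its samples overlapped those of TGFB1 at 25.4 ± 1.46 TPM, and TGFB2, at 15.0 ± 1.24 TPM, overlapped SMAD2 at 14.2 ± 0.558 TPM. TGFBR1 was lowest at 8.87 ± 0.507 TPM, below SMAD7 at 11.0 ± 0.378 TPM, with no overlap between them.

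**Figure D3:**
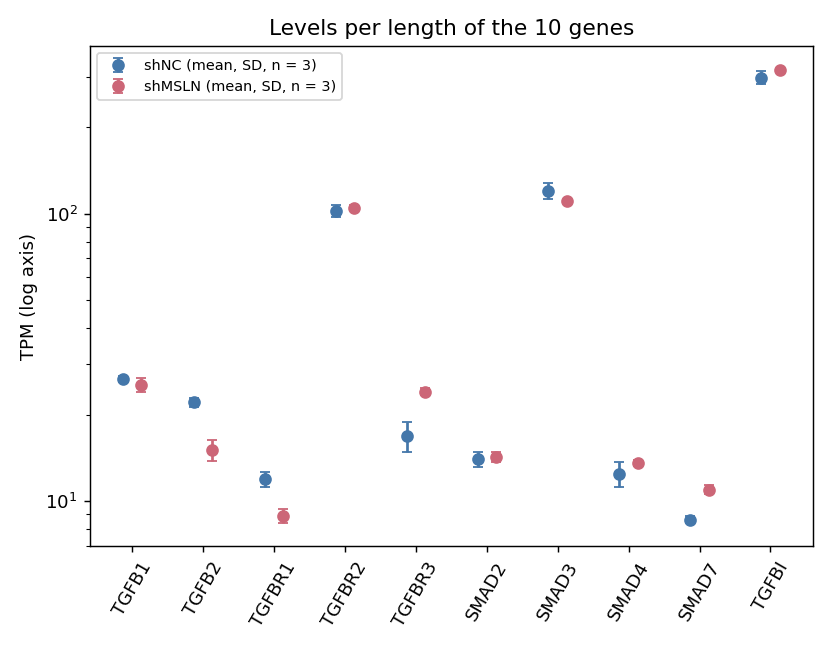
Mean TPM with SD of the 10 genes on a log axis, shNC in blue and shMSLN in red (n = 3 each). TGFB2 and TGFBR3 exchange places between the groups, at 22.0 and 16.8 TPM in shNC against 15.0 and 24.0 TPM in shMSLN cells, as do TGFBR1 and SMAD7.

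**Figure D4:**
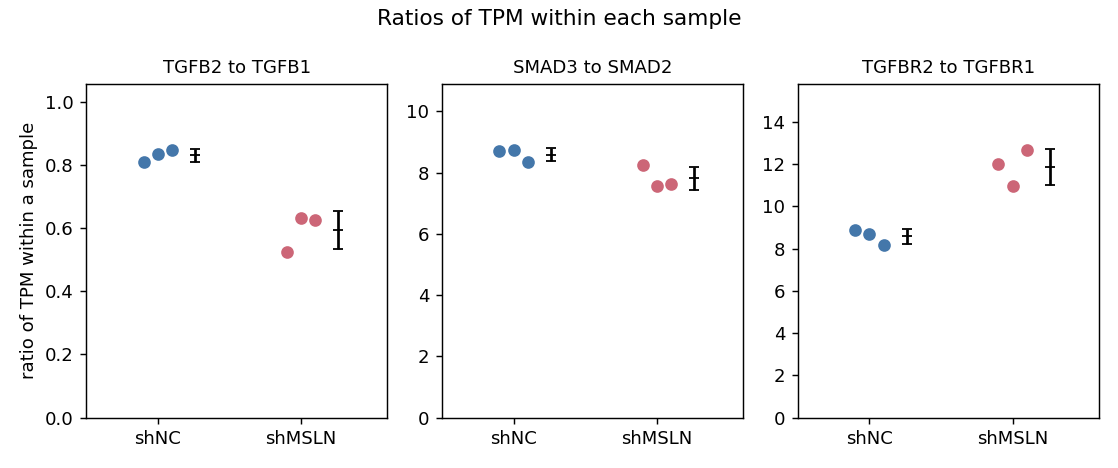
Ratios of TPM within each sample for the ligands, the receptor-regulated SMADs and the signalling receptors, on axes that start at 0, with the mean and SD of 3 samples beside the points. The TGFB2 to TGFB1 ratio is lower and the TGFBR2 to TGFBR1 ratio higher in every shMSLN sample.

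The wider pathway was examined through 5 lists with 133 other genes, of which 125 were tested. Among these 32 were higher and 32 lower, so that 51.2% were called against 34.6% of all tested genes. Of all tested genes with a mean of at least 10 CPM, 39.3% were called. The median log2 fold change was -0.012, and the median size of the change was 0.19 against 0.14 over all tested genes. The lists were chosen with earlier results of these data known. Neither the share of calls nor the size of the changes is therefore read as a change of the pathway. The split of the calls depended on the scale, with 33 higher and 24 lower on log2(TPM + 1) and 35 higher and 30 lower with upper-quartile scaling.

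Among 20 genes for ligands and their release, 6 were higher and 5 lower, with a median log2 fold change of 0.21. Thus 55.0% were called, against 34.6% of all tested genes. The largest rises were those of LTBP1 and LTBP2. LTBP1, which ties the latent ligand to the matrix, was at 11.2, 12.7 and 13.9 CPM in shNC cells and at 25.9, 27.8 and 26.3 CPM in shMSLN cells (log2 fold change 1.08, adjusted p = 1.28e-07). LTBP2, a matrix protein of the same family, rose from 25.6 ± 1.15 to 46.1 ± 0.719 CPM (SD, n = 3 each, log2 fold change 0.85). The other members of the family were at 0.19 (LTBP3, adjusted p = 0.00232) and 0.0062 (LTBP4, adjusted p = 0.949) on the log2 scale. ITGB8, an integrin subunit that releases latent ligand, fell by 0.32 on the log2 scale. THBS1, a thrombospondin that does the same, fell by 0.31, and ITGB5, an integrin subunit, fell by 0.26. Other called genes of this list went both ways. ITGB1 was at 0.24 and MMP14 at 0.22 on the log2 scale, while FURIN was at -0.24 and ITGAV at -0.18. ITGB6, another integrin subunit, was at 0.017 and did not pass edgeR's test (adjusted p = 0.831). DCN, a matrix proteoglycan that binds TGF-beta, was near the detection limit, and its change from 1.09 ± 0.225 to 1.77 ± 0.191 CPM (adjusted p = 0.0389) lost its call without each sample other than shNC replicate 1, with adjusted p-values from 0.0249 to 0.145 over 16 alternatives.

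Of 25 accessory receptors and receptor regulators, 4 were higher and 5 lower, which at 36.0% is close to the share of all tested genes. PMEPA1, a TGF-beta-induced protein that holds SMAD2 and SMAD3 back from the receptor, was at 125, 134 and 125 CPM in shNC cells and at 74.5, 70.7 and 69.9 CPM in shMSLN cells (log2 fold change -0.83, adjusted p = 5.61e-09). PMEPA1 and SMAD7 are both feedback inhibitors, and their changes had opposite directions, although the call of SMAD7 was not firm. ZFYVE9, the SARA protein that brings SMAD2 and SMAD3 to the receptor, fell by 0.33 on the log2 scale, and the ubiquitin ligase WWP1 fell by 0.23. USP11, a deubiquitinase of the type I receptor, rose by 0.31 and CD109, a TGF-beta co-receptor, by 0.21. FKBP1A, which binds the unstimulated type I receptor, rose by 0.14 (adjusted p = 0.0149), a call that was lost without shMSLN replicate 2 (0.0539) or replicate 3 (0.0512), with adjusted p-values from 0.00460 to 0.206 over 16 alternatives.

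Of 20 tested nuclear partners and repressors, 1 was higher and 4 lower, a share of 25.0% against 34.6% of all tested genes. CTBP1, a corepressor, fell from 59.2 ± 1.20 to 42.7 ± 1.14 CPM (SD, n = 3 each, log2 fold change -0.47, adjusted p = 3.2e-06). PPM1A, described as a SMAD phosphatase, fell by 0.24 and the corepressor NCOR1 by 0.22 on the log2 scale. The repressor TGIF1 was 0.12 higher on the log2 scale (adjusted p = 0.0446), and this call was lost without shNC replicate 3 (0.205) and without shMSLN replicates 1, 2 or 3 (0.136, 0.125 and 0.0701), with a range from 0.0156 to 0.220 over 16 alternatives.

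In the BMP and activin branch, which signals through related receptors, 10 of 27 tested genes were higher and 8 lower. The share called was 66.7%, against 34.6% of all tested genes. INHBA, which encodes the activin A subunit and whose ligand also acts on SMAD2 and SMAD3, was at 37.1, 40.4 and 37.2 CPM in shNC cells and at 18.3, 18.3 and 17.5 CPM in shMSLN cells. Every knockdown sample was far below the lowest control (log2 fold change -1.08, adjusted p = 1.09e-08). FST, the activin antagonist follistatin, fell from 9.28 ± 1.40 to 5.09 ± 0.478 CPM (log2 fold change -0.86). GREM1, a BMP antagonist, rose from 3.46 ± 1.42 to 6.93 ± 0.922 CPM, with shNC replicate 1 at 5.09 CPM against 2.66 and 2.62 CPM in the other controls. In TPM that sample did not stand out. The controls were at 0.74, 0.63 and 0.98 TPM and the shMSLN samples at 2.13, 2.4 and 2.81 TPM. CHRD, another BMP antagonist, was at 1.64 ± 0.10 and 0.924 ± 0.284 CPM (adjusted p = 0.0267), and its call was lost without shNC replicate 1 (0.0618), shNC replicate 3 (0.0582), shMSLN replicate 1 (0.0752) or shMSLN replicate 3 (0.121), with a range from 0.0171 to 0.147 over 16 alternatives. INHA, at 0.517 ± 0.277 and 1.04 ± 0.220 CPM (adjusted p = 0.04996), lost its call without each sample other than shNC replicate 3, with adjusted p-values from 0.0171 to 0.386 over 15 alternatives. The ID genes, which are induced by BMP signalling and encode inhibitors of basic helix-loop-helix factors, were all 4 higher. Of all tested genes 16.6% were called higher. ID4 rose by 0.96, ID3 by 0.76, ID2 by 0.60 and ID1 by 0.18 on the log2 scale, and all 4 ID genes kept their call in each of 16 alternatives. ID1, ID2 and ID3 were picked out after their values were seen, so the count of 4 is not read as a result about the set.

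Of 33 tested TGF-beta target genes 11 were higher and 10 lower, with a median log2 fold change of 0.075. Their share of calls was 63.6%, against 34.6% of all tested genes. The most abundant of those named, IGFBP3, a secreted binding protein for insulin-like growth factors, fell from 3654 ± 148 to 2532 ± 19.1 CPM (SD, n = 3 each, log2 fold change -0.53, adjusted p = 2.54e-08). COL5A1, a fibrillar collagen gene, was at 91.2, 97.1 and 87.5 CPM in shNC cells and at 48.3, 47.6 and 46.5 CPM in shMSLN cells (log2 fold change -0.95). CDKN1A, the cell cycle inhibitor p21, fell by 0.58. CDH2, which encodes N-cadherin, rose from 6.41 ± 0.930 to 11.8 ± 1.07 CPM, TAGLN, an actin-binding protein, by 0.64 and the protease ADAM19 by 0.59 on the log2 scale. CCN2, a matricellular protein gene picked out after its values were seen, was at 7.66, 8.15 and 6.85 CPM in shNC cells and at 9.68, 10.5 and 11.0 CPM in shMSLN cells (log2 fold change 0.46, adjusted p = 0.00345). Of 7 fibroblast markers, a cell type rich in TGF-beta target genes, 5 were above 1 CPM in some sample, and the summed level of the list was 92.1 to 94.0 CPM in shNC and 159 to 164 CPM in shMSLN samples. Most of this difference was LUM, at 60.3 ± 2.21 and 125 ± 1.77 CPM, and FAP was higher, at 0.534 ± 0.116 and 1.11 ± 0.174 CPM (log2 fold change 1.04, adjusted p = 0.0180). FAP was near the detection limit, with 8 to 22 estimated counts per sample. THY1 was at 28.1 ± 1.02 and 31.0 ± 2.91 CPM, with an adjusted p of 0.131. PDGFRB had the opposite direction, with means of 3.17 CPM in shNC and 2.77 CPM in shMSLN cells (log2 fold change -0.19). It did not pass edgeR's test (adjusted p = 0.435), and neither did PDGFRA (log2 fold change 0.31, adjusted p = 0.48). Of the fibrillar collagen genes, COL1A1, a member of the target list, was at 31.0 ± 1.29 and 31.4 ± 0.873 CPM (adjusted p = 0.830), and the markers COL1A2 and COL3A1 were at 0.0365 ± 0.0632 and 0.183 ± 0.175 CPM in shNC and at 0.275 ± 0.137 and 0.294 ± 0.111 CPM in shMSLN cells. The part of these markers in the changes of target genes was not tested.

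**Figure D5:**
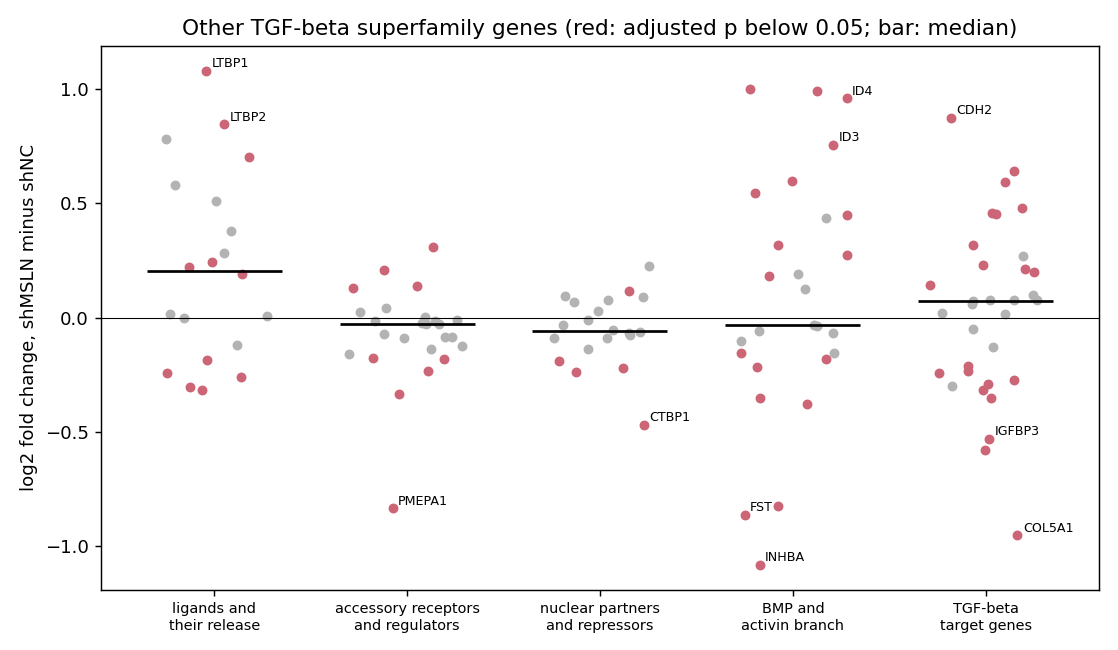
Each point is a tested gene of the 5 lists, placed by its log2 fold change (shMSLN minus shNC, vertical axis), in red where the adjusted p was below 0.05, and each bar is the median of a list. LTBP1 at 1.08 and INHBA at -1.08 are the highest and the lowest points, and the medians lie between -0.059 and 0.21.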

How the data were processed

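RNA-Seq of 3 shNC and 3 shMSLN samples of HCC1806/HM3 cells was used, grouped by the sample titles. The authors deposited estimated counts, FPKM and TPM per gene and sample. The submitters' processing notes name the build GRCh38.p13, and the aligner, counter and annotation are not given in the sources used here. The deposited counts carry no library scaling, whereas FPKM and TPM, as the authors made them, allow for depth and the length of each gene.

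The 16573 of 17860 genes with a value in every sample were kept, since 1287 had a missing mark in 1 or more shMSLN columns. Counts were rounded, scaled by TMM and tested in edgeR 4.0.16 (R 4.3.3; filterByExpr, glmQLFit, glmQLFTest, no covariate), with Benjamini-Hochberg adjustment over 14552 genes and a threshold of 0.05. Standard errors are the log2 fold change divided by the square root of F, and intervals are at 95%. Within-sample ratios of TPM were compared by exact permutation tests. The scripts were tested on simulated counts.

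Alternatives were RLE and upper-quartile scaling, other filters, DESeq2 1.42.0, limma-voom and limma 3.58.1 on log2(TPM + 1), missing values as 0, the replicate number as a block and leaving out samples. The 10 genes and the lists were chosen with earlier results of these data known. The text names the 10 genes, TGFB3, MSLN, and in each list up to 3 genes per direction with the largest change among called genes of at least 1 CPM in a group. Of the listed genes 131 of 133 were in the table, and 6 of these were too low to test. The values of 1 listed gene are not reported here. LTBP3, LTBP4, ITGB1, ITGB6, ITGAV, MMP14, FURIN, COL1A1 and the markers were named outside this rule, after their values were seen.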

Additional observations from a re-analysis of the deposited data

How the results depend on the processing

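TGFB2, TGFBR1 and TGFBR3 kept their direction and their call in each of 16 alternatives, with log2 fold changes from -0.69 to -0.52, from -0.51 to -0.39 and from 0.41 to 0.55. TGFB1 and TGFBI missed the threshold in all 16 alternatives without a change of sign. Leaving out each sample in turn gave 3 to 6 called genes of the 10, SMAD3 from -0.17 to -0.10, SMAD7 from 0.22 to 0.29, SMAD4 from 0.045 to 0.16, TGFBR2 from -0.0010 to 0.030, and TGFB3 from -0.20 to 0.019, the last without shNC replicate 2. With shMSLN replicate 1 alone against the shNC samples, a fit in which the lone sample is assumed to vary like the controls, 1797 of all genes, 3 of the 10 genes and 30 genes of the lists were called, SMAD3 was at -0.11 and SMAD7 at 0.29 without a call, and SMAD2 was at -0.049. This fit has fewer samples. On log2(TPM + 1) SMAD3 lost its call at -0.11 (adjusted p = 0.0967), and with DESeq2 SMAD7 lost it at 0.25, and the cause was not tested. The fit without shMSLN replicate 1 stands for replicates 2 and 3 alone. Of 32 genes named from the lists as changed, 21 kept their call in every alternative run. LTBP3, ITGB1, MMP14, FURIN and ITGAV were not among these 32. Running these alternatives on the named genes was chosen after seeing the data.

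With the replicate number as a block, 5789 of all genes, 5 of the 10 genes and 65 genes of the lists were called, in place of 5032, 5 and 64, and no call among the 10 genes changed. The deviations of same-numbered samples from their group means correlated at 0.22, 0.085 and 0.095, and each sample correlated best with its own number, a hint from the data and not the design, so the samples were treated as sharing only a number.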
